A study of Mus musculus with 12 samples.

Results

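Cadherins that mark regions of the developing cortex were followed between the rostral and the caudal end of mouse neocortex at E13.5, a day of embryonic development when cortical neurons are being born. The 7 genes, the classical cadherins Cdh2, Cdh4, Cdh6, Cdh8, Cdh10 and Cdh11 and the protocadherin Pcdh10, were taken by their symbol in the platform annotation. They were read by 10 of the 21998 probes on the array: 3 for Cdh10, 2 for Cdh6 and 1 for each other gene. Measured pools sufficed for 6 genes to be tested among 14418 features, and for 9 of their probes to be tested in a fit of 15289 single probes. Cdh8 was the member left out.

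RNA of rostral neocortex was hybridised against RNA of caudal neocortex of the same pool of 3 embryos, with 3 pools from the outbred strain MF1 and 3 pools from the inbred strain C57, written C57Bl\6 in the design text. Each pool was read on 2 arrays with the dyes Cy3 and Cy5 exchanged, which gave 12 arrays. The labels name no treatment and no mutation in either strain. Rostral and caudal tissue was matched within single litters, but the labels do not state separate litters for the 3 pools of a strain. The p-values thus describe how these pools varied, which may in part be technical variation. The cDNA was amplified before labelling, and each end was taken as whole tissue with all its cell types. For the members, fewer cells that carry a transcript and less of that transcript per cell cannot be told apart.

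Cadherins are membrane proteins that bind one another across the gap between neighbouring cells in the presence of calcium. Classical cadherins hold catenins at their cytoplasmic tail, which tie them to actin, and cells that carry the same cadherin tend to adhere to each other and to sort from cells that carry another. In the embryonic and postnatal cortex of mice several classical cadherins and protocadherins are found in bands or fields that differ along the rostrocaudal axis, and for this reason they have been used as markers of prospective areas. Type I cadherins such as Cdh2 and Cdh4 and type II cadherins such as Cdh6, Cdh8, Cdh10 and Cdh11 differ in the part of the outer domain that does the binding. Protocadherins lack the catenin-binding tail.

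All values below are log2 ratios of rostral over caudal, the mean of the 2 arrays of a pool after each array was centred on its median. A value of 0 is thus the median ratio of the arrays, which need not be equal signal at both ends. A value of 1 is a signal 2-fold higher rostrally relative to that median. A ratio says nothing about the level of a gene, so no member's level was set against another's. For the same reason the cortical origin of the tissue cannot be read from these ratios, and those of cortical genes are given as a description. Of 10 listed genes of cortical identity, 9 were tested, and their median ratio was 0.12, with Pax6 at 0.40 ± 0.18 and Lhx2 at -0.50 ± 0.13 (SD, n = 6 pools). Rostral over caudal is the likely direction, not a known one, because the sources used here do not name the dye used as numerator. Under the direction used, both probes of Nr2f1, a nuclear receptor with a known high-caudal gradient in this tissue, lay below 0 on 12 of 12 arrays (mean -1.14 ± 0.57, limma adjusted p = 0.147). Nr2f1 belongs to the reference genes from which that direction was taken, as do Lhx2 and Pax6, so their signs are no independent evidence of it. Of the 5 caudal reference genes 4 had means below 0, with Emx2 at 0.09 ± 0.27, and of the 9 rostral reference genes 6 had means above 0, with Etv5 at 0.54 ± 0.05 and Fgf15 at -0.39 ± 0.61 (SD, n = 6 each). Were the numerator the other dye, every ratio given here would take the opposite sign.

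The 2 arrays of a pool ranked the probes weakly alike in MF1 and in partly opposed order in C57. The Spearman correlation of their ratios over all probes was 0.12, 0.04 and 0.24 in the MF1 pools and -0.30, -0.16 and -0.13 in the C57 pools, and each array lacked a value for 4.55% to 18.2% of the probes. The share of probes with the same sign on both arrays was 54.3%, 52.2% and 61.9% in the MF1 pools and 41.2%, 45.0% and 46.1% in the C57 pools. A member's values in C57 therefore lean on 2 arrays that often disagreed, and the agreement of each probe between its arrays is given with it. MF1 and C57 arrays also differed in spread, with a robust SD of 0.49 in MF1 and 0.74 in C57, and strain and set of arrays cannot be told apart.

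With limma on the pool means, 0 of the 6 members passed a Benjamini-Hochberg adjusted p of 0.05, and 0 of the 14418 features did (0%). At an unadjusted p under 0.05, 3 of the 6 members, Cdh10, Cdh2 and Pcdh10, were called, each on the side of higher signal rostrally, where 4.34% of all features fell and 8.98% fell in either direction. An alternative limma fit of the 12 arrays called 25 features after adjustment, and none of the members was among them. Of the 6 members 5 had a mean above 0, as did 51.6% of all features, and only Cdh11 had a mean below 0. Their median was 0.28, while the median of all features was 0.01 with quartiles at -0.15 and 0.15. The members were chosen with earlier results of these data known, so these shares and medians are no independent evidence about region-marking cadherins.

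**Figure D1:**
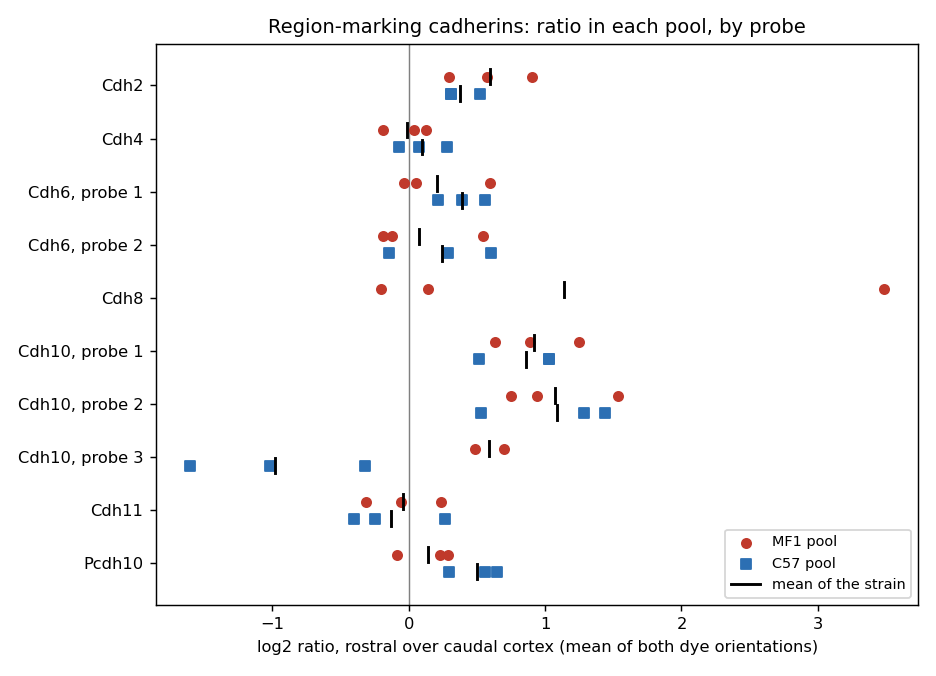
Log2 ratio of rostral over caudal signal (horizontal axis) for each probe of the 7 genes (rows), each point a pool of 3 embryos, MF1 pools (circles) drawn above C57 pools (squares), with a short bar at each strain's mean. Cdh2 and the first and second probes of Cdh10 sit above 0 in 6 of 6 pools, the third Cdh10 probe splits by strain, and Cdh8 has values in MF1 pools alone.

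Cdh2, or N-cadherin, is the main cadherin of the apical junctions between neuroepithelial and radial glial cells. Its ratios were 0.91, 0.58 and 0.29 in MF1 pools 1 to 3 and 0.31, 0.52 and 0.31 in C57 pools 1 to 3. All 6 pools lay above 0, a pattern that 3.47% of the features with 6 pools had, and the strains overlapped. The mean was 0.49 ± 0.24 (SD, n = 6 pools; 1.40-fold higher rostrally, 95% interval 0.20 to 0.78), and limma gave an unadjusted p of 0.00569 and an adjusted p of 0.445. At this size 3.93% of all features lay at or above Cdh2. Without centring of the arrays the mean was 0.30 and the unadjusted limma p 0.0651.

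The single arrays show how Cdh2 came to these means. In MF1 the arrays with rostral RNA in Cy3 read 0.97, 0.63 and 0.65, and those with rostral RNA in Cy5 read 0.85, 0.53 and -0.06. In C57 the arrays with rostral RNA in Cy3 read 0.03, 0.13 and 0.02, close to the array median, and those with rostral RNA in Cy5 read 0.58, 0.91 and 0.60. Before centring and turning, the C57 arrays with rostral RNA in Cy3 held 0.149, 0.024 and 0.106, which is the caudal side under the direction used. After centring, Cdh2 was above 0 on 11 of 12 arrays, and both arrays had the same sign in 5 of 6 pools. Every C57 value from Cy5-rostral arrays, however, exceeded every C57 value from Cy3-rostral arrays. Which part of that gap belongs to the dyes was not tested.

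Cdh4, or R-cadherin, is the second type I member and can bind Cdh2. It read 0.04, 0.12 and -0.19 in MF1 pools and 0.28, 0.08 and -0.07 in C57 pools. Its values lay on both sides of 0 in each strain, with a mean of 0.04 ± 0.16 (SD, n = 6) and a 95% interval of -0.22 to 0.31 (limma adjusted p = 0.924). Its 2 arrays had the same sign in 2 of 6 pools, so the sign of Cdh4 was not settled at this number of arrays. Without centring of the arrays the mean of Cdh4 was -0.15, so its direction also turned with the processing.

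Cdh10, a type II cadherin of the brain, had the highest mean of the 6 members. Averaged over its probes, Cdh10 read 0.89, 1.08 and 0.78 in MF1 pools and 0.72, -0.01 and 0.26 in C57 pools. The MF1 pools did not overlap the C57 pools, as was true of 14% of all features. The mean was 0.62 ± 0.41 (SD, n = 6; 1.54-fold higher rostrally, 95% interval 0.31 to 0.93; limma, unadjusted p = 0.00243, adjusted p = 0.353), and 2.14% of features lay at or above it.

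The 3 probes of Cdh10 disagreed. The first probe (CG_Mm_3005200_1) read 1.25, 0.63 and 0.89 in MF1 pools and 1.03, 1.03 and 0.52 in C57 pools, and the second probe (CG_Mm_EXT_3108369_1) read 0.94, 1.53 and 0.75 in MF1 pools and 1.44, 0.53 and 1.29 in C57 pools. Both probes were therefore above 0 in every pool of both strains, as were 3.49% of the probes with 6 pools, the first on 12 of 12 arrays and the second on 11 of 12. The third probe (CG_Mm_EXT_3112929_1) read 0.48 and 0.70 in MF1 pools 1 and 3, had only 1 array in MF1 pool 2, where the gene-level value rests on the others, and read -0.32, -1.60 and -1.02 in C57 pools. It lay above 0 in both measured MF1 pools and below 0 in all 3 C57 pools, a split of strains by sign that 3.18% of probes had.

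The first probe averaged 0.89 ± 0.27 (SD, n = 6; 1.85-fold higher rostrally; limma by probe, unadjusted p = 0.000388, adjusted p = 0.236). The second averaged 1.08 ± 0.40 (SD, n = 6; 2.11-fold; unadjusted p = 0.000477, adjusted p = 0.244). By p-value they ranked 25 and 29 among 15289 probes, where 4.37% of probes had an unadjusted p under 0.05 with higher signal rostrally and 0% passed adjustment. The third averaged -0.35 ± 0.98 over 5 pools, with a fitted ratio of -0.19 when strains weigh equally (limma by probe, adjusted p = 0.804).

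On single arrays of the C57 pools the second probe read 0.58, -0.58 and 0.39 with rostral RNA in Cy3 and 2.30, 1.64 and 2.19 with rostral RNA in Cy5, while the first read 0.03, 1.39 and 0.84 with rostral RNA in Cy3 and 2.03, 0.67 and 0.20 with rostral RNA in Cy5. The second probe was thus higher in the Cy5 orientation in every C57 pool, and the first was so in 1 of them. The third probe read -0.96, -2.385 and -1.14 with rostral RNA in Cy3 and 0.325, -0.817 and -0.903 with rostral RNA in Cy5. It too was higher in the Cy5 orientation in every C57 pool, and its 2 arrays of pool 1 had opposite signs.

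The first and second probes together averaged 0.98 ± 0.18 (SD, n = 6; 1.98-fold), 0.998 ± 0.16 in MF1 pools and 0.97 ± 0.23 in C57 pools (SD, n = 3 each). On this mean, chosen after seeing the data, limma gave an adjusted p of 0.180, and the strains differed by 0.03 (adjusted p = 0.998). The gene-level strain difference of Cdh10 was 0.59 with the third probe and 0.03 without it. The third probe minus the mean of the others was -0.37 ± 0.35 in MF1 pools (SD, n = 2) and -1.95 ± 0.42 in C57 pools (SD, n = 3). What the third probe reads was not tested. Its accession in the platform annotation, like that of the second probe, belongs to a cDNA clone, and its sequence was not used here.

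**Figure D2:**
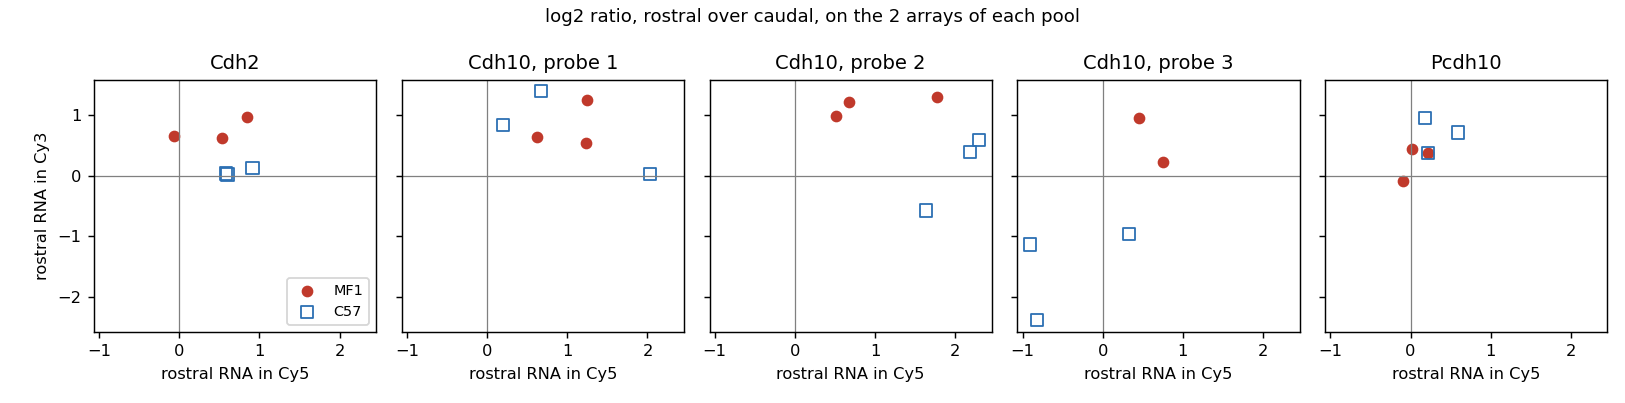
Log2 ratio of rostral over caudal on the array with rostral RNA in Cy5 (horizontal axis) against the array with rostral RNA in Cy3 (vertical axis), each point a pool, filled for MF1 and open for C57. The first Cdh10 probe has all 6 pools right of and above 0, and the third Cdh10 probe has 4 of 5 pools with the same sign on both arrays.

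Probes of a gene on both sides of 0 were common on this array. Of 694 genes with 2 or more tested probes, 350 (50.4%) had fitted ratios on both sides of 0, with a median range between probes of 0.25. The range of the Cdh10 probes was 1.28, and 12 of 81 genes with 3 or more tested probes, Cdh10 included, had a range at least as large. The range of the Cdh6 probes was 0.14.

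Cdh6 is a type II cadherin found in the embryonic cortex and in the developing neural tube. It read 0.24, -0.11 and 0.30 in MF1 pools and 0.03, 0.42 and 0.50 in C57 pools. It was above 0 in 5 of 6 pools, and the strains overlapped. The mean was 0.23 ± 0.23 (SD, n = 6; 95% interval -0.06 to 0.52; limma adjusted p = 0.614).

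By probe, Cdh6 read 0.60, -0.03 and 0.05 in MF1 pools and 0.22, 0.56 and 0.39 in C57 pools on the first (CG_Mm_3005147_1), and -0.13, -0.19 and 0.55 in MF1 pools and -0.15, 0.29 and 0.60 in C57 pools on the second (CG_Mm_3005353_1). The first probe averaged 0.30 ± 0.26 and the second 0.16 ± 0.36 (SD, n = 6 each; limma by probe, adjusted p = 0.556 and 0.772). Each probe had the same sign on both arrays in only 3 of 6 pools. The widest gap between 2 arrays was in C57 pool 3 of the second probe, with 1.55 where rostral RNA was in Cy3 and -0.35 where it was in Cy5.

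Cdh11, a type II cadherin also known from mesenchyme, was the one member with a mean below 0. It read -0.31, -0.06 and 0.24 in MF1 pools and 0.27, -0.40 and -0.25 in C57 pools. Both strains had pools on both sides of 0, and the mean was -0.09 ± 0.29 (SD, n = 6; 95% interval -0.42 to 0.25; limma adjusted p = 0.872). Both arrays had the same sign in 4 of 6 pools. As Cdh11 is also a gene of mesenchyme, the meningeal and mesenchymal marker list is given beside it. Of its 15 tested genes 12 had a fitted ratio below 0 when strains weigh equally. Among these 12, Pdgfra and Prrx1 had means over their 5 measured pools slightly above 0, at 0.05 and 0.02. The list median of the fitted ratios was -0.11, with 0.05 in MF1 and -0.31 in C57. Twist2 had a mean of -0.45 ± 0.49 and Foxd1 of 0.28 ± 0.55 (SD, n = 6 each). The part of such cells in the Cdh11 ratio was not tested.

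Cdh8, a type II cadherin known as a marker of rostral cortex, could not be tested. In MF1 pool 1 it read 6.46 on the Cy3-rostral array and 0.51 on the Cy5-rostral array, in MF1 pool 2 -0.15 and -0.25, and in MF1 pool 3 -0.55 and 0.84. One array thus held a ratio far from all others, and the MF1 mean of 1.14 ± 2.04 (SD, n = 3) became -0.03 without pool 1. In C57 only 2 of 6 arrays had a value, 2.11 in pool 2 with rostral RNA in Cy5 and 0.63 in pool 3 with rostral RNA in Cy3, and no pool had both. A fit that kept pools with 1 array gave 1.26 for Cdh8 (limma, adjusted p = 0.661). Both C57 values were above 0, and no ratio that spans the dye exchange could be formed for C57.

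Pcdh10, also called OL-protocadherin, is a non-clustered protocadherin of growing axons and cortical fields. It read 0.23, -0.09 and 0.29 in MF1 pools and 0.30, 0.56 and 0.65 in C57 pools. Pcdh10 was above 0 in 5 of 6 pools and on 10 of 12 arrays. After centring, both arrays had the same sign in 6 of 6 pools, the best agreement of the single-probe members. Before centring, the Cy5-rostral arrays of MF1 pools 1 and 3 and of C57 pool 2 read -0.104, -0.103 and -0.095. The Cy3-rostral arrays of these pools lay on the rostral side, so their signs differed there. The mean was 0.32 ± 0.26 (SD, n = 6; 1.25-fold higher rostrally, 95% interval 0.05 to 0.60; limma, unadjusted p = 0.0272, adjusted p = 0.508), and 9.29% of features lay at or above it. The unadjusted p of Pcdh10 was under 0.05 in 9 of 17 alternatives; it was 0.0745 and 0.0578 when MF1 pool 1 or 3 was left out, and 0.0622 and 0.0783 when C57 pool 2 or 3 was left out (limma), and without centring the mean was 0.13.

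**Figure D3:**
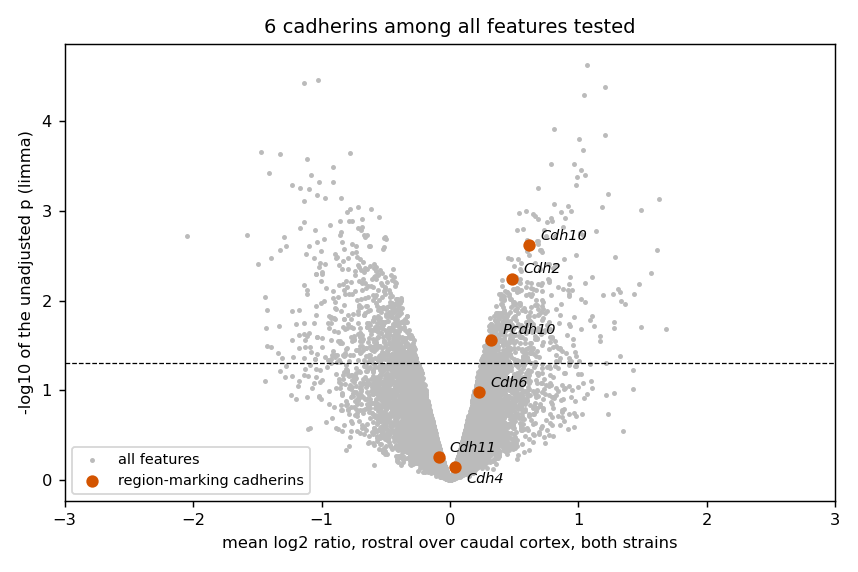
Log2 ratio of rostral over caudal (horizontal axis) against minus log10 of the unadjusted limma p (vertical axis) for 14418 features in grey, with the 6 tested members marked and named and a dashed line at the 0.05 threshold. Cdh10 and Cdh2 lie to the right at unadjusted p of 0.00243 and 0.00569, Pcdh10 follows at 0.0272, and Cdh4 and Cdh11 lie near 0.

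The order of the member ratios from high to low was Cdh10, Cdh2, Pcdh10, Cdh6, Cdh4 and Cdh11 in the direction used, and with the other dye as numerator it would run the other way, with Cdh11 highest and Cdh10 lowest. Neighbours in this order differed by less than the spread of their difference between pools. Cdh10 exceeded Cdh2 by 0.13 ± 0.41 and in 3 of 6 pools, and Cdh2 exceeded Pcdh10 by 0.16 ± 0.41 and in 4 of 6 pools. The ends of the order were further apart. Cdh10 and Cdh2 each exceeded Cdh11 in 6 of 6 pools, by 0.70 ± 0.36 and 0.57 ± 0.47, and Cdh2 exceeded Cdh4 in 6 of 6 pools, by 0.44 ± 0.27 (SD, n = 6). These 15 pairwise differences between ratios are descriptions with no test.

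Within MF1 pools, 2 of 6 members had an unadjusted p under 0.05 in limma, both higher rostrally, where 2.37% of all features did so and 4.36% in either direction. They were Cdh10 (limma adjusted p = 0.656) and Cdh2 (limma adjusted p = 0.912). Within C57 pools, 1 of 6 members did, also higher rostrally, where 4.23% of all features did so and 9.71% in either direction. It was Pcdh10 (limma adjusted p = 0.405). In neither strain did a member pass adjustment (0% of all features in each). Both tests used 1 spread shared by all 6 pools, while arrays had a robust SD of 0.49 in MF1 and 0.74 in C57. Calls in 1 strain alone thus do not show that a member differs between strains. With rostral RNA in Cy3 alone, Cdh10 in C57 was at -0.20.

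Between strains, 0 of 6 members passed the adjusted threshold for the difference MF1 minus C57 in limma, and 0 did at an unadjusted p under 0.05, where 0% and 6.1% of all features did. For Cdh10 the MF1 mean was 0.92 ± 0.15 and the C57 mean 0.32 ± 0.37 (SD, n = 3 each; difference 0.59, unadjusted p = 0.0599, adjusted p = 0.848). For Pcdh10 the MF1 mean was 0.14 ± 0.20 and the C57 mean 0.50 ± 0.18 (difference -0.36, adjusted p = 0.944). The pools of these 2 members did not overlap between strains, in opposite directions, where 14% of all features had no overlap. The highest MF1 value of Pcdh10 was only just below its lowest C57 value, and the strain difference of Cdh10 was 0.03 when the third probe was left out.

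Cdh2 averaged 0.59 ± 0.31 in MF1 and 0.38 ± 0.12 in C57 pools (SD, n = 3 each; difference 0.21, limma adjusted p = 0.968). Cdh6 averaged 0.14 ± 0.22 in MF1 and 0.32 ± 0.25 in C57, Cdh4 averaged -0.01 ± 0.16 in MF1 and 0.10 ± 0.18 in C57, and Cdh11 averaged -0.04 ± 0.28 in MF1 and -0.13 ± 0.35 in C57. Strain differences of these 3 members were all within their spread between pools. With 3 pools per strain the fit does not show that the strains act alike.

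Other genes of the cadherin superfamily were taken from lists by family, 77 genes with their partners, of which 60 were on the array and 46 were tested, and 0 of them passed the adjusted threshold in limma. Of 7 other classical cadherins, 3 had means above 0 and 4 below, with a median of -0.02, and the list had 0 genes at an unadjusted p under 0.05. The end points were Cdh9, a type II cadherin, at 0.43 ± 0.55 (SD, n = 5) and Cdh22 at -0.54 ± 1.13 (SD, n = 6). Both carried spreads wider than their means, as did Cdh18 at -0.12 ± 1.14 (SD, n = 6) and Cdh15 at 0.07 ± 0.34 (SD, n = 5).

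Of 15 atypical and other cadherins, 7 were above 0 and 8 below, with a median of -0.02. At an unadjusted p under 0.05 there were 2 of 15, both higher rostrally, where 4.34% of all features were higher rostrally and 8.98% were called in either direction: Fat1, a giant cadherin of the apical border of radial glia, at 0.55 ± 0.50 (SD, n = 6; limma, adjusted p = 0.518), and Dsc3, a desmosomal cadherin, at 0.49 ± 0.22 (SD, n = 5; adjusted p = 0.481). Cdh13, which lacks a cytoplasmic tail and is tied to the membrane by a lipid anchor, read -0.24 ± 0.26, and Celsr2, a cadherin of planar polarity, read -0.18 ± 0.33 (SD, n = 6 each). Neither was called.

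Of 4 other non-clustered protocadherins, Pcdh8 at 0.35 ± 0.74 and Pcdh17 at 0.14 ± 0.60 lay above 0, and Pcdh7 at -0.27 ± 1.06 and Pcdh9 at -0.37 ± 2.01 lay below (SD, n = 6 each). Each of these spreads was more than 2 times that of Pcdh10, 0.26. The Pcdh9 mean held 1 pool, C57 pool 2, at -4.30, with the other pools between -0.21 and 1.39.

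**Figure D4:**
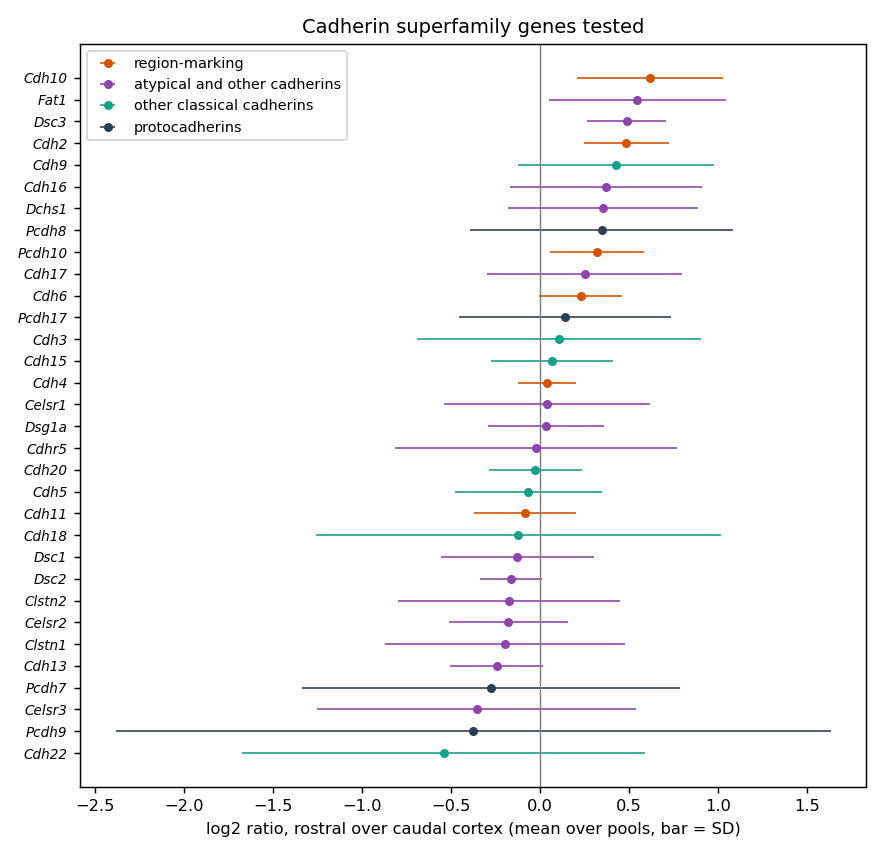
Mean log2 ratio of rostral over caudal over pools (horizontal axis; bars are SD over the pools measured) for each tested cadherin superfamily gene, sorted from high to low and coloured by list. The members Cdh10 and Cdh2 are at the top and just under Fat1 and Dsc3, and Pcdh9 and Cdh22 at the bottom carry wide bars.

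Of 20 tested catenins and other cytoplasmic or junctional partners, 14 had means above 0 and 6 below, with a median of 0.07. Magi1, a scaffold of junctions, was the 1 of 20 called at an unadjusted p under 0.05, a share near the 4.34% of all features called with higher signal rostrally. It read 0.27, 0.31 and 0.33 in MF1 pools and 0.10, 0.21 and 0.51 in C57 pools (mean 0.29 ± 0.14; limma, unadjusted p = 0.0338, adjusted p = 0.524). It was above 0 in all 6 pools. Afdn, or afadin, which links nectins to actin, read 0.28 ± 0.21 (SD, n = 6), Pkp4, an armadillo-family partner, read -0.68 ± 0.88 (SD, n = 4), and Nectin2, an adhesion receptor of adherens junctions, read -0.22 ± 0.69 (SD, n = 6).

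Markers of the cell types that the tissue could hold are given beside the member ratios. Of 12 tested radial glial genes 9 had means above 0, with a median of 0.04 and pool medians between -0.06 and 0.35. Hes5, a Notch target, was at 0.49 ± 0.50, with 0.09 in MF1 and 0.89 in C57. Vim was at -0.16 ± 0.18, with -0.16 in each strain. Of 15 tested neuronal genes 10 had means above 0, with a median of 0.06 and pool medians between -0.16 and 0.12. In the neuronal list Foxp1 was at 0.40 ± 0.15 and Neurod1 at -0.25 ± 0.20 (SD, n = 6 each). The choroid plexus and hem list had 8 of 10 genes below 0, a median of -0.14, and a median below 0 in each of the 6 pools. In it Msx2, at 0.40 ± 0.39 (SD, n = 6), ran against the median, with 0.06 in MF1 and 0.74 in C57. Lmx1a was at -1.33 ± 1.06 (SD, n = 4), with -0.84 in MF1 and -1.83 in C57. The part of these cell types in the ratios of Cdh2, Cdh10 and Pcdh10 was not tested.

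The ventral telencephalon list had 6 of its 12 tested genes above 0 and 6 below (median 0.07). In it Zic1, which also marks rostromedial forebrain, was at 0.78 ± 0.31 and Dlx5 at -0.63 ± 0.32 (SD, n = 6 each). The 11 blood vessel genes had 5 above 0 and 6 below, with a median of -0.02, with Cd34 at 0.24 ± 0.33 (SD, n = 5) and Icam2 at -0.79 ± 1.20 (SD, n = 6). Array ratios give no level, so whether the defining markers of these types were present at all could not be read from them.

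By root mean square difference over 6 pools, searched over 8878 named genes with 6 pools, the genes most like each member in their pool ratios were named by rule. Cdh2 was closest to Ttyh1 (0.0849) and Tacc2 (0.138), Cdh6 to Papola (0.0665) and S1pr2 (0.0706), and Pcdh10 to Neu1 (0.0753) and Chd1 (0.0775). Cdh4 was closest to Upk2 (0.0466) and Cul3 (0.0547), and Cdh11 to Pold4 (0.0404) and Alppl2 (0.0618). Cdh10, taken as the mean over its disagreeing probes, had no near match, with Mrps24 at 0.284 and Syap1 at 0.305, both with lower means of 0.42. The single Cdh10 probes were not searched. Members near 0 resemble many genes by this measure, as most features lie near 0.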

How the data were processed

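Rostral over caudal ratios were measured on 12 arrays of 2 colours. The deposited table held log2 ratios between the dyes, read as log2 from the values themselves, which were signed around 0 with a ceiling of 16.61, the log2 of 100000. Image analysis, background correction, normalization and the numerator dye were not given in the sources used here. Pools and amplification are per the labels and the series' design text. The ceiling values, 701 in all, counted as missing, each array was centred on its median, and arrays with rostral RNA in Cy3 were turned, assuming Cy5 over Cy3. The deviations of the 2 turned arrays of a pool from their strain and orientation mean correlated at 0.25, 0.22 and 0.35 in MF1 and at 0.15, 0.16 and -0.00 in C57 pools (Spearman, over probes).

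Probes were named from the platform annotation: 16864 had 1 symbol, 139 several and 4995 none. Pool means of probes were averaged per gene, which concerned 1069 genes, so a gene's value in a pool can rest on fewer probes, as for Cdh10 in MF1 pool 2. Features with both dye orientations in at least 2 pools per strain entered lmFit and eBayes of limma 3.58.1 under R 4.3.3 (a mean per strain, 1 shared spread, Benjamini-Hochberg adjustment, threshold 0.05). On simulated data with 14418 features, 36% of features given a log2 size of 1 were recovered and 87% of those given a size of 2 (100 features each, in 1 simulation), and 8 unchanged features were called. The simulation drew independent pool means with no dye effect and the same spread in both strains. Its shares therefore do not give the power to find changes on these arrays. Spot intensities were not used here, so signal over background is unknown, and the number of arrays limits the precision. The members and lists were chosen with earlier results of these data known. Named genes were all members with their probes, from each other cadherin list the genes past the threshold or else the 2 of smallest p on each side of 0, from each marker list 1 on each side, Nr2f1, and for each member the 2 genes closest in pool ratios. Alternatives were no centring, scaling, single orientations, other filters, a 12-array fit, a block by pool number and each pool left out.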

Additional observations from a re-analysis of the deposited data

Results flagged for a closer look

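The third Cdh10 probe (CG_Mm_EXT_3112929_1) differed by 1.57 on the log2 scale between strains (MF1 minus C57, 95% interval 0.52 to 2.62), with 0.48 and 0.70 in the MF1 pools that had both arrays and -0.32, -1.60 and -1.02 in the C57 pools. It was listed because every measured MF1 pool lay above 0 and every C57 pool below. In C57 pool 1 its 2 arrays differed in sign, at -0.96 with rostral RNA in Cy3 and 0.325 with rostral RNA in Cy5. In limma by probe the difference had an unadjusted p of 0.0109 and an adjusted p of 0.701. The same split of strains by sign, in either direction, was seen in 486 of 15289 probes (3.18%). The other Cdh10 probes lay above 0 in all pools of both strains.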

How the results depend on the processing

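No member passed the adjusted threshold under any alternative run: of 568 member values, 535 kept the direction and side of the threshold of the reported value and 33 turned direction. The mean over both strains stayed above 0 for Cdh2 (0.30 to 0.57 over 17 alternatives) and Cdh10 (0.37 to 0.98 over 18, of which the one that leaves out 1 Cdh10 probe was chosen after seeing the data), and for Pcdh10 (0.13 to 0.46 over 17). The count of features past the adjusted threshold, 0 in each reported comparison, became 5 over both strains and 6 by probe with features complete in every pool, and 25 over both strains, 3 in MF1, 11 in C57 and 32 by probe in the 12-array fit, whose consensus correlation within pools was 0.00624 over genes. In C57 it became 188 with rostral RNA in Cy3 alone, 146 of them higher rostrally, and 118 with rostral RNA in Cy5 alone, 17 of them higher rostrally. Leaving out each pool gave 0 throughout. At an unadjusted p under 0.05 the count over both strains ranged from 798 without MF1 pool 1 to 2592 with Cy5 alone.

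Without centring, features had a median of -0.18, and among 2168 features at an unadjusted p under 0.05 only 144 were higher rostrally, against 626 of 1295 with centring. Values that turned direction without centring were Cdh4 over both strains (-0.15) and in C57 (-0.0677), Cdh6 and Pcdh10 in MF1 (-0.0741 and -0.0712) and the second Cdh6 probe (-0.0269). With scaled arrays Cdh4 in MF1 was 0.0044 and the strain difference of the second Cdh10 probe 0.46. With rostral RNA in Cy3 alone Cdh4 was -0.14 over both strains and -0.22 in C57, Cdh10 was -0.20 in C57, Cdh11 was 0.023 in MF1, and the strain differences (MF1 minus C57) of Cdh4, the first Cdh6 probe and the second Cdh10 probe were 0.16, 0.11 and 1.03. With Cy5 alone Cdh4 was 0.039 in MF1, Cdh11 0.11 in C57, the third Cdh10 probe 0.066, and the strain differences of Cdh2, Cdh11 and the second Cdh6 probe -0.26, -0.21 and 0.48. The cause was not tested.

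With each pool left out, ranges that crossed 0 were -0.0035 to 0.0882 for Cdh4 over both strains, -0.0768 to 0.0813 for Cdh4 in MF1, -0.18 to 0.0918 for Cdh11 in MF1, -0.33 to 0.0094 for Cdh11 in C57, and, for strain differences, -0.0555 to 0.28 for Cdh11, -0.41 to 0.0065 for the second Cdh6 probe, -0.11 to 0.21 for the first Cdh10 probe and -0.29 to 0.17 for the second.

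Pool numbers shared between strains did not pair the pools, as the deviations of same-numbered pools correlated at -0.14, 0.06 and -0.00. With pool number as a replicate block 0 features passed in limma (smallest adjusted p over both strains 0.716), and 996 had an unadjusted p under 0.05, with Cdh2 at 0.0187, Cdh10 at 0.00989 and Pcdh10 at 0.0678. Signal over background is unknown, so weak spots could not be told from strong ones.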
